A study of Danio rerio with 4 samples.

Results

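The transcription factors that set and maintain rod and cone identity were followed in whole eyes of zebrafish (Danio rerio) of 4 genotypes. The set holds 10 genes chosen by name: nr2e3, nrl, crx, otx5, neurod1, thrb, tbx2b, rxrga, six7 and foxq2. They were chosen with earlier results of these data known. All 10 were found among the 19260 genes that the array annotation names by a single symbol, each through 1 probe set. The genotypes were eys+/-; lrp5+/- (the double heterozygote), eys-/-, lrp5-/- and wildtype. All fish were 3.5 months old, of mixed sex, and kept at 28.5°C with 14 h of light and 10 h of dark a day. Each genotype was measured on 1 Affymetrix array of total RNA, so there are no replicates, and every difference below compares 2 arrays. The mutant alleles, the number of fish behind an array and the time of day at which eyes were taken are not given in the sources used here.

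Rods and cones arise from a common precursor under a small network of transcription factors. The homeodomain factors Crx and Otx5 and the bHLH factor NeuroD1 act in photoreceptors generally, Nr2e3 and Nrl promote the rod fate, and in zebrafish thrb, tbx2b, foxq2 and six7 are needed for red cones, ultraviolet cones, blue opsin and green opsins in turn. The eys gene encodes an extracellular protein of photoreceptors, and lrp5 encodes a Wnt co-receptor that acts in retinal vessel growth. Because the eye was taken whole, less RNA of a gene per cell and fewer cells that express it cannot be told apart.

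Values are log2 signals as deposited, so a difference of 1 is 2-fold. For a comparison of 2 arrays, a gene was taken as measured if its signal reached 6.57 on at least 1 of them, which is the median of all values of singly named probe sets. It was called if the difference was 2-fold or more. Signals of different probe sets are on different scales, so only readings of the same gene are set against each other. As a yardstick for single genes, the robust SD of the difference over all measured genes was 0.226 for the double heterozygote minus wildtype, 0.196 for eys-/- minus wildtype and 0.198 for lrp5-/- minus wildtype. The pairs of arrays correlated at 0.978 to 0.983 over all probe sets. As a check of the tissue, the 4 matched rod markers (of 6 listed) read between 10.8 and 12.6 and the 4 matched cone markers (of 6) between 9.19 and 12.7 on the 4 arrays, all above the measured level.

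The factor nr2e3 stood out in the double heterozygote, at 3.75-fold its wildtype signal. The factor six7 was 2.01-fold higher there, and foxq2 was lower in all 3 mutant genotypes. The factors crx, neurod1, nrl, thrb and tbx2b differed from wildtype by at most 1.24-fold in each. In the double heterozygote 2 of the 10 factors were 2-fold or more above wildtype and 0 below, where 1.23% of 10434 measured genes were higher and 0.489% lower, 1.72% in all. In eys-/- 0 of 10 passed (background 0.632% of 10435 genes) and in lrp5-/- 0 of 10 (background 0.671% of 10426 genes). The median difference of the 10 from wildtype was 0.13 in the double heterozygote (0.026 after repeated quantile normalization), -0.076 in eys-/- and 0.042 in lrp5-/-, beside 0.0016, -0.014 and -0.00014 over all measured genes.

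**Figure D1:**
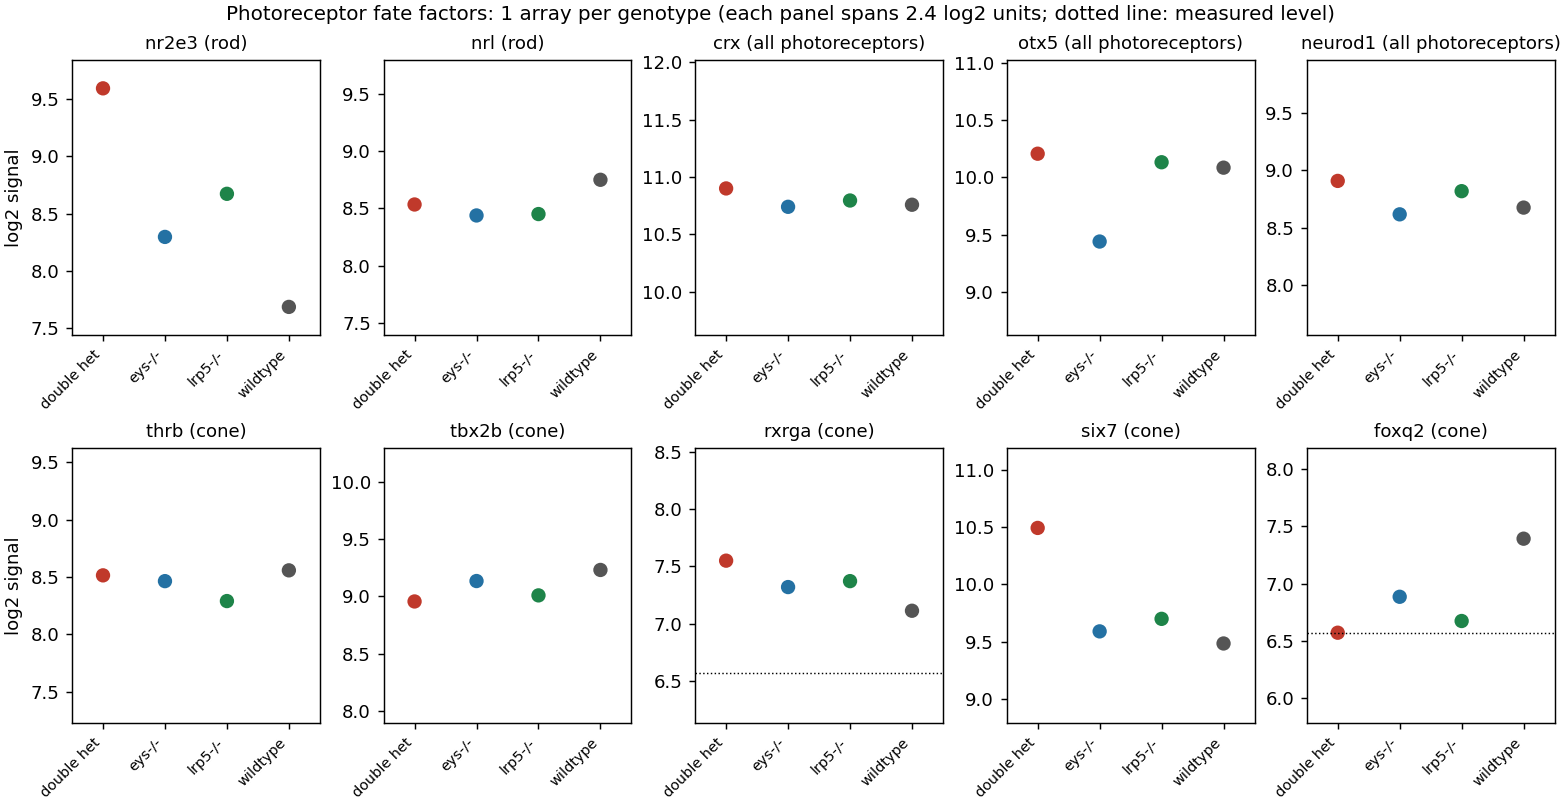
Log2 signal (vertical axis) of each of the 10 factors on the 4 arrays, 1 point per genotype (double het is eys+/-; lrp5+/-), with no error bars because each genotype has 1 array. All panels have the same height on the log2 scale, and the dotted line marks the measured level of 6.57. The nr2e3 point of the double heterozygote lies at 9.59, against 7.69 in wildtype, while those of crx lie between 10.74 and 10.90.

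Among the rod factors, nr2e3 encodes an orphan nuclear receptor that activates rod genes and represses cone genes. It read 9.59 in the double heterozygote, 8.30 in eys-/- and 8.67 in lrp5-/-, against 7.69 in wildtype. All 3 mutant genotypes were above wildtype, and the double heterozygote was the highest. The differences from wildtype were 1.91 in the double heterozygote, 0.61 (1.53-fold) in eys-/- and 0.99 (1.98-fold) in lrp5-/-. In the double heterozygote this was the 13th largest higher difference among 10434 measured genes, and in lrp5-/- the 42nd largest among 10426. The lrp5-/- value lay just under the 2-fold threshold. The double heterozygote also exceeded eys-/- by 1.30 and lrp5-/- by 0.92. The homozygotes were closer to each other, lrp5-/- exceeding eys-/- by 0.38, which 14.2% of 10446 measured genes matched or passed in size. In the RefSeq gene order of assembly GRCz12tu, nr2e3 lies on the same chromosome as lrp5. Between them lie 268 of the 841 protein-coding genes on it. The other 9 factors lie on other chromosomes than lrp5, and all 10 on other chromosomes than eys. Any part of this position in the nr2e3 differences was not tested.

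The other rod factor did not follow. The bZIP factor nrl, which acts upstream of nr2e3 in mouse rods, read 8.53 in the double heterozygote, 8.44 in eys-/- and 8.45 in lrp5-/-, against 8.75 in wildtype. It was thus lower than wildtype by 0.22, 0.31 and 0.30 on the log2 scale, and the 3 mutant readings lay within 0.096 of each other. Differences from wildtype of this size or more were found in 36.2%, 16.0% and 17.1% of measured genes.

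The homeodomain factor crx, which activates many photoreceptor genes, had the smallest span of the 10 factors. Its readings were 10.90 in the double heterozygote, 10.74 in eys-/- and 10.80 in lrp5-/-, against 10.76 in wildtype, a span of 0.16. The gene neurod1, which governs cell cycle exit of photoreceptor precursors in zebrafish, read 8.91, 8.62 and 8.82 in the double heterozygote, eys-/- and lrp5-/-, against 8.68 in wildtype. Neither gene differed from wildtype by much more than the robust SD of all genes in any genotype.

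The crx relative otx5 was lower in eys-/-. It is expressed in retina and pineal, where it is known in zebrafish to regulate genes with circadian expression. Its signal was 10.21 in the double heterozygote, 9.44 in eys-/- and 10.13 in lrp5-/-, against 10.08 in wildtype. The eys-/- array was 1.56-fold lower than wildtype, a difference of -0.64, while the other mutant genotypes lay within 0.12 of wildtype. It was also lower in eys-/- than in the other mutants: the double heterozygote exceeded eys-/- by 0.77 and lrp5-/- exceeded eys-/- by 0.69. In size, 2.45% of measured genes differed from wildtype as much in eys-/-.

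**Figure D2:**
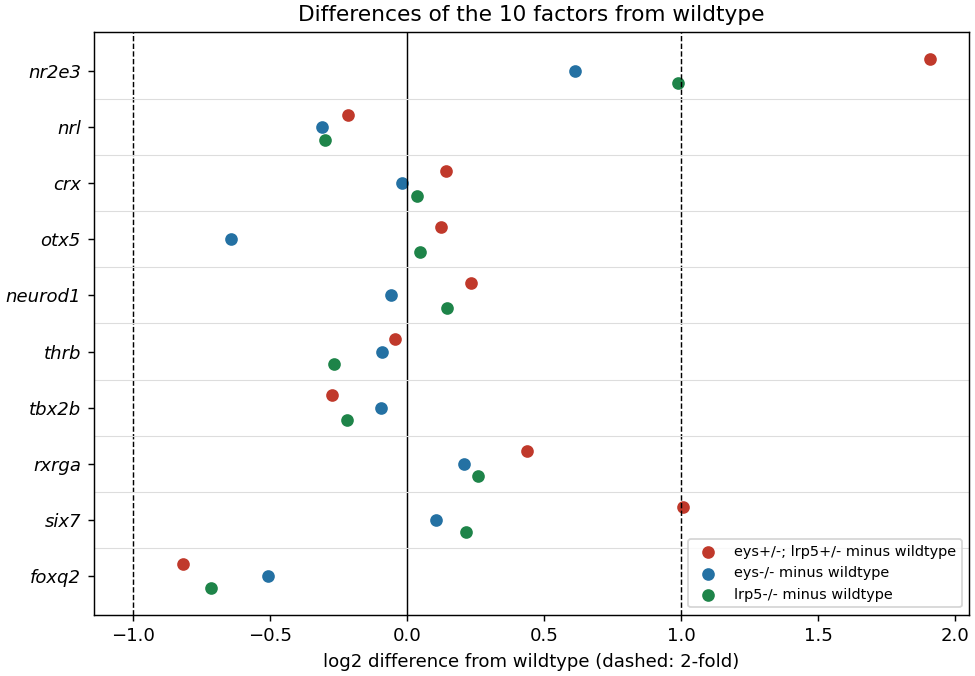
Log2 difference from wildtype (horizontal axis) of each factor, 1 point for each mutant genotype, with dashed lines at 2-fold. Only nr2e3 and six7 reach 2-fold, both in the double heterozygote (1.91 and 1.01), and the lowest point is foxq2 in the double heterozygote at -0.82.

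Of the cone factors, six7, a homeodomain factor of the sine oculis family, was 2-fold higher in the double heterozygote, close to the threshold. The readings were 10.49 in the double heterozygote, 9.59 in eys-/- and 9.70 in lrp5-/-, against 9.49 in wildtype. The double heterozygote stood apart, and the other 3 readings spanned 0.21. The difference from wildtype was 1.01 in the double heterozygote, 0.11 in eys-/- and 0.21 in lrp5-/-. It fell just below 2-fold when the level-dependent trend was removed (0.99) or quantile normalization was repeated over the named probe sets (0.93). The double heterozygote exceeded eys-/- by 0.90 and lrp5-/- by 0.79.

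The forkhead factor foxq2 was lower in every mutant genotype. It read 6.57 in the double heterozygote, 6.89 in eys-/- and 6.67 in lrp5-/-, against 7.39 in wildtype. The differences were -0.82 (1.77-fold lower), -0.51 (1.42-fold lower) and -0.72 (1.65-fold lower), each under 2-fold. Differences as large occurred in 2.84%, 5.04% and 1.84% of measured genes. The double heterozygote reading lay at the measured level and the readings of both homozygotes just above it, so the sizes are uncertain.

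The remaining cone factors differed less. The thyroid hormone receptor gene thrb read 8.51 in the double heterozygote, 8.46 in eys-/- and 8.29 in lrp5-/-, against 8.56 in wildtype. The T-box gene tbx2b read 8.96, 9.13 and 9.01 in the same order of mutants, against 9.23 in wildtype. Both were below wildtype in every mutant, by at most 0.27 on the log2 scale. The retinoid X receptor gene rxrga, whose mouse counterpart restrains short-wave opsin in cones, read 7.55, 7.32 and 7.37, against 7.11 in wildtype, so it was higher in every mutant, by up to 0.44. With the remaining 3 arrays averaged as the reference, its difference was -0.025 in eys-/- and 0.044 in lrp5-/-.

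At a 1.5-fold threshold, 3 of 10 factors passed in the double heterozygote (nr2e3, six7 and foxq2), beside 6.16% of all measured genes. In eys-/- 2 passed (nr2e3 and otx5), beside 3.28%, and in lrp5-/- 2 passed (nr2e3 and foxq2), beside 3.26%. These comparisons share the wildtype array, so a high or low wildtype reading would appear in all of them. This concerns nr2e3, rxrga and six7, for which the wildtype reading was the lowest. It also concerns foxq2, nrl, thrb and tbx2b, for which the wildtype reading was the highest. With the remaining 3 arrays averaged as the reference, the eys-/- differences became -0.35 for nr2e3 and 0.006 for foxq2, and that of nr2e3 in lrp5-/- became 0.15. That reference still holds the wildtype and double heterozygote arrays, so these values cannot show whether the wildtype reading was off.

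**Figure D3:**
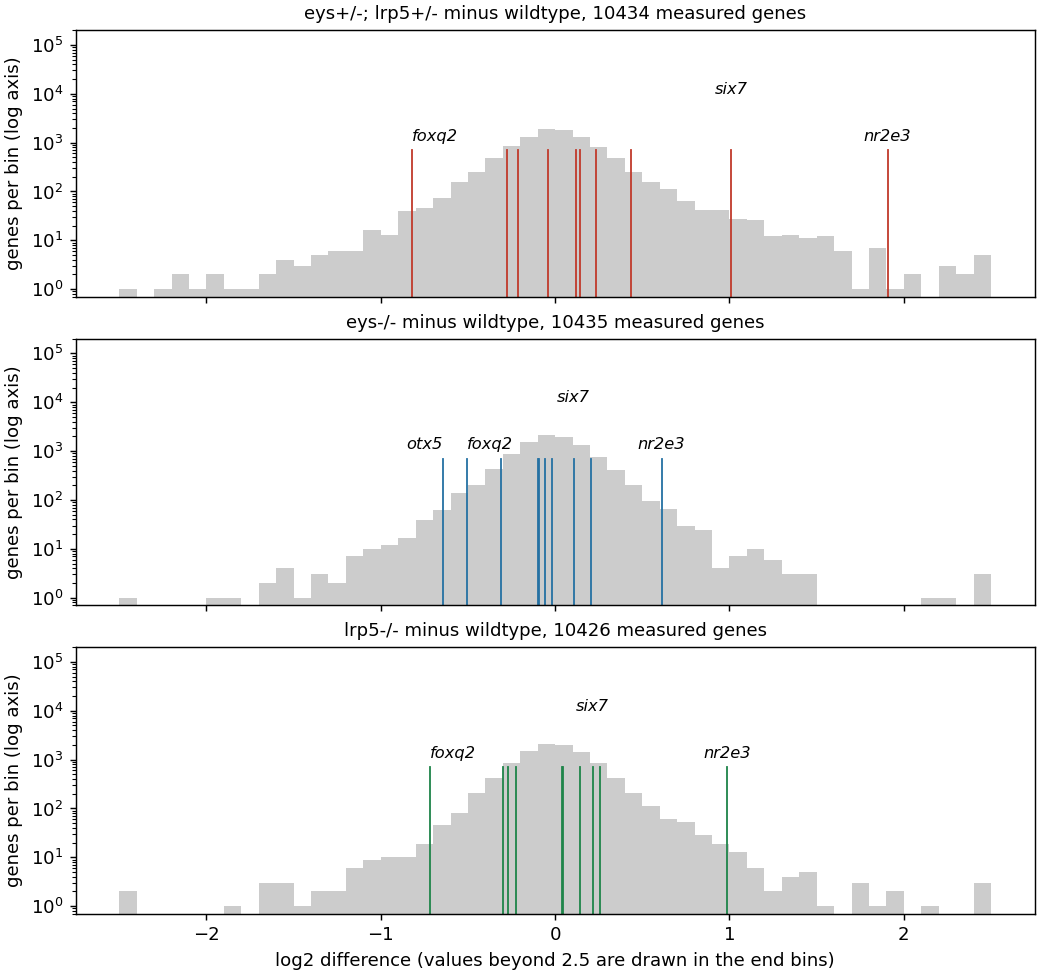
Number of measured genes (vertical log axis) by log2 difference from wildtype (horizontal axis), in a panel for each mutant genotype, with coloured lines at the 10 factors. In the double heterozygote nr2e3 lies in the sparse upper tail at 1.91, while in eys-/- it lies at 0.61 and the lowest factor is otx5 at -0.64.

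The mutants were also compared with each other. Of the 10 factors, 1 passed 2-fold in the double heterozygote against eys-/-, namely nr2e3, where 2.18% of 10448 measured genes passed. None, 0 of 10, did so in the double heterozygote against lrp5-/- (background 0.59% of 10339 genes) or in lrp5-/- against eys-/- (background 1.43% of 10446 genes). At 1.5-fold, 3 factors passed in the double heterozygote against eys-/- (nr2e3, otx5 and six7), beside 7.63% of genes, 2 in the double heterozygote against lrp5-/- (nr2e3 and six7), beside 2.88%, and 1 in lrp5-/- against eys-/- (otx5), beside 5.44%. Each of these differences has a counterpart against wildtype with which it shares no array, which gives 3 pairs. The double heterozygote minus eys-/- and lrp5-/- minus wildtype correlated at 0.867 over the 10 factors (Pearson; 0.741 without nr2e3), with the same sign in 8, beside 0.431 and 60.8% of the same sign over 10131 measured genes. The double heterozygote minus lrp5-/- and eys-/- minus wildtype correlated at 0.743 (0.509 without nr2e3) with the same sign in 5 of 10, beside 0.093 and 52.0% over 10031 genes. For lrp5-/- minus eys-/- and the double heterozygote minus wildtype the correlation was 0.516 (0.405 without nr2e3) with the same sign in 9 of 10, beside 0.334 and 57.5% over 10137 genes. This is a description across genes, which are not replicates. All 3 pairs come from the same 4 arrays, so their correlations are not separate results. In the first of these pairs the values for nr2e3 were 1.30 and 0.99, for six7 0.90 and 0.21, for otx5 0.77 and 0.05, and for foxq2 -0.31 and -0.72.

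**Figure D4:**
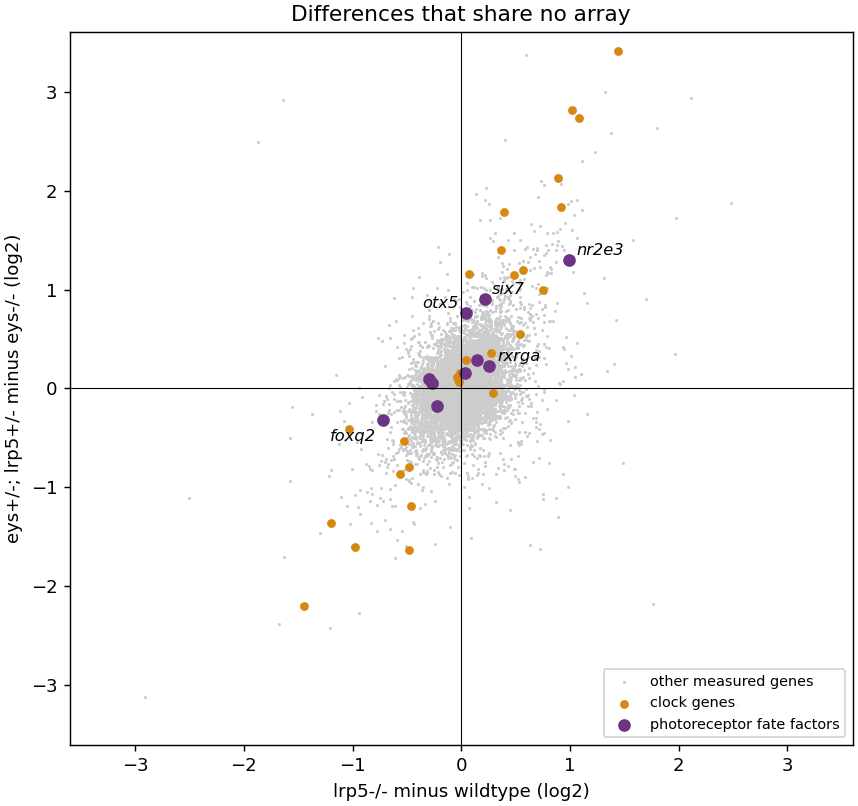
Log2 difference of eys+/-; lrp5+/- minus eys-/- (vertical axis) against lrp5-/- minus wildtype (horizontal axis) for 10131 measured genes, with the 10 factors in purple and clock genes in orange. The point of nr2e3 lies at 0.99 and 1.30 in the upper right, and foxq2 lies at -0.72 and -0.31.

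The order of the 4 readings, examined after the values were seen, fell into few patterns. The order double heterozygote, lrp5-/-, eys-/-, wildtype from high to low was that of nr2e3, rxrga and six7, and of 5.77% of 10743 genes that reached the measured level on any array. Its exact reverse was that of foxq2 and tbx2b, and of 6.24% of genes. In the values as deposited, the 3 general factors crx, otx5 and neurod1 shared the order double heterozygote, lrp5-/-, wildtype, eys-/-, which 8.46% of genes had. For crx this order depended on the scaling. After repeated quantile normalization it read below wildtype by 0.012 in the double heterozygote, 0.096 in eys-/- and 0.033 in lrp5-/-. Many neighbouring readings in these orders differed by less than the robust SD, as for crx and for the homozygotes' six7.

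Clock genes differed between the same arrays. The list was made after earlier results were known. Of 28 measured circadian clock genes, 6 were higher and 6 lower by 2-fold in the double heterozygote. In lrp5-/- 3 were higher and 3 lower, and of 26 in eys-/- 0 were higher and 2 lower. Over all measured genes, 1.72% passed in the double heterozygote, 0.671% in lrp5-/- and 0.632% in eys-/-. The clock activator bmal1a read 4.83 in the double heterozygote, 7.02 in eys-/- and 5.61 in lrp5-/-, against 7.06 in wildtype. Its double heterozygote and lrp5-/- readings lay below the measured level, so the sizes are uncertain. In the same order, the repressor gene per1a read 10.63, 7.82 and 9.77, against 8.75 in wildtype. In the values as deposited, 11 of the 28 clock genes had the order of crx, otx5 and neurod1, beside 8.46% of genes. The order of foxq2 and tbx2b was that of 5, beside 6.24%. The order of nr2e3, rxrga and six7 was that of 0, beside 5.77%. With 28 genes, a count of 0 is near such a share. Of the 26 clock genes measured in eys-/-, 5 read above wildtype and 21 below. Their median difference was -0.21, beside -0.014 over all measured genes. The part of the clock in the factors' differences was not tested.

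Genes with the most similar profile were sought for the 4 factors whose readings spanned 0.5 or more, among 2018 measured genes of such a span, by the root mean square difference of the 4 centred log2 readings. Closest to nr2e3 were the corneal proteoglycan gene kera (0.115), si:dkey-247k7.2 (0.123) and pde6ga (0.132), the last encoding an inhibitory subunit of a photoreceptor phosphodiesterase. Closest to six7 were efhd1 (0.046), zbtb16b (0.054) and pde5aa (0.060). For foxq2 they were hirip3 (0.043), josd2 (0.046) and cxcl20 (0.059), and for otx5 sntb1 (0.012), si:dkeyp-120h9.1 (0.029) and slc45a2 (0.029). With only 4 points, many genes have a close profile.

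Of 53 other retinal transcription factors listed, 34 were measured in the double heterozygote, and 26 of them read below wildtype. The list median was -0.30, beside 0.0016 over all measured genes. By 2-fold, 0 were higher and 4 lower, beside 1.23% and 0.489% of all measured genes. The lower ones were rorcb at -1.50, the orphan receptor gene nr2f6b at -1.31, the homeobox gene tgif1 at -1.07 and the retinal homeobox gene rx1, active in photoreceptor development, at -1.05. In lrp5-/- 0 were higher and 1 lower, rorcb at -1.20, with a median of -0.14. In eys-/- 0 passed in either direction, with a median of -0.035. Over all measured genes, 0.671% passed in lrp5-/- and 0.632% in eys-/-. The genes rorcb and nr1d1 are in the clock list as well.

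The matched genes that rods use for phototransduction and outer segment structure did not move with nr2e3 as a group. Of 25 listed, 22 were matched, and rho, cnga1 and cngb1a were not. In the double heterozygote 1 was higher by 2-fold and 0 lower, beside 1.23% and 0.489% of all measured genes. The list median there was -0.092, with 8 genes above wildtype and 14 below. The lowest were rcvrna at -0.55 and gucy2f at -0.51. In both homozygotes 0 passed, beside 0.632% of measured genes in eys-/- and 0.671% in lrp5-/-. The gene higher by 2-fold was pde6ga, with the same order as nr2e3. It read 11.03 in the double heterozygote, 9.98 in eys-/- and 10.06 in lrp5-/-, against 9.36 in wildtype. Median readings of the 4 rod markers, which are all in this list, were 11.44, 11.45 and 11.44 in the double heterozygote, eys-/- and lrp5-/-. In wildtype the median was 11.40.

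The median of 21 measured cone output genes was 0.17 in the double heterozygote. There 3 were higher by 2-fold and 0 lower, beside 1.23% and 0.489% of all measured genes. The higher ones were the cone channel gene cnga3a at 1.07 and the guanylate cyclase activators guca1d and guca1g at 1.14 each. The opsin kinase gene grk7a differed by 0.85. In lrp5-/- 1 was higher, guca1g at 1.11, and in eys-/- 0 passed, beside 0.671% and 0.632% of all measured genes. The guca1 genes have close relatives, so their values are uncertain. Median readings of the 4 cone markers were 12.30, 12.20 and 12.20, against 12.20 in wildtype. These medians do not show the marker cnga3a, which was higher by 1.07 in the double heterozygote and 0.78 in lrp5-/-.

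**Figure D5:**
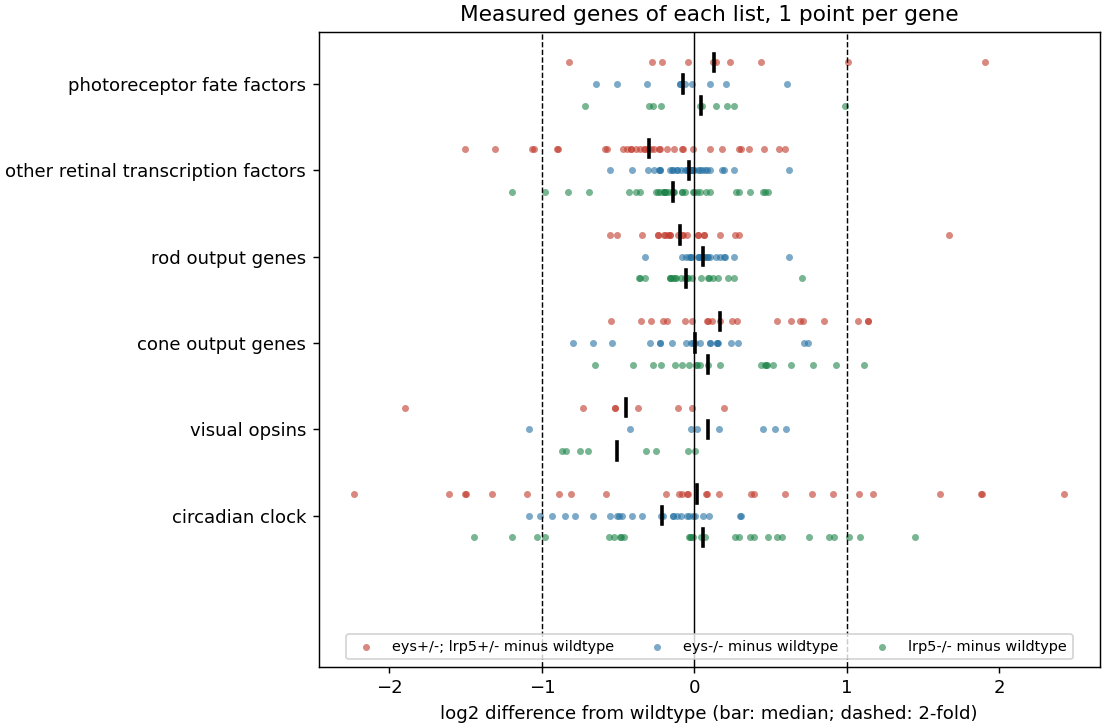
Log2 difference from wildtype (horizontal axis) of the measured genes of 6 lists, 1 point per gene and genotype, with black bars at the medians and dashed lines at 2-fold. Most rod output genes cluster near 0, with pde6ga at 1.67, rcvrna at -0.55 and gucy2f at -0.51 in the double heterozygote. The clock genes of the double heterozygote spread between -2.23 and 2.43.

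Visual opsins were set beside a factor that each depends on in zebrafish, which need not be the only one. The ultraviolet opsin gene opn1sw1, which depends on tbx2b, differed from wildtype by -0.01, -0.02 and -0.04 in the double heterozygote, eys-/- and lrp5-/-. The blue opsin gene opn1sw2 differed by -0.11, 0.02 and -0.25, while foxq2, on which it depends, was lower by 0.82, 0.51 and 0.72 on the log2 scale. The matched green opsin genes, which depend on six7, were not higher with it in the double heterozygote, while opn1mw2 had no matching symbol. The gene opn1mw1 differed by -1.90, -1.08 and -0.84, opn1mw3 by -0.73, 0.60 and -0.70, and opn1mw4 by -0.52, 0.53 and -0.87. The red opsin genes opn1lw1 and opn1lw2, which depend on thrb, differed by 0.19 and -0.52 in the double heterozygote, 0.45 and 0.16 in eys-/-, and -0.75 and -0.32 in lrp5-/-. The rhodopsin-like gene rhol differed by -0.37, -0.43 and 0.01, and the rhodopsin gene rho had no matching symbol. Green and red opsins are near-identical tandem copies that can share probes, so the values of single copies are uncertain.

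Markers of other eye cells were compared in 8 lists. Of 42 measured genes, 0 passed 2-fold in any mutant. Over all measured genes, 1.72% passed in the double heterozygote, 0.632% in eys-/- and 0.671% in lrp5-/-. The list medians ran between -0.16 for ganglion cells and 0.24 for pigment epithelium in the double heterozygote, between -0.20 for ganglion cells and 0.42 for surface epithelium in eys-/-, and between -0.38 for skeletal muscle and 0.33 for pigment epithelium in lrp5-/-. The part of cell composition in the factors' differences was not tested.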

How the data were processed

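RNA of whole eyes was measured on 4 Affymetrix arrays, 1 per genotype. The authors deposited log2 signals for 75212 probe sets. Per the submitters' processing notes, the tools were RMA and Transcriptome Analysis Console 4.0; that the scale is log2 follows from the values' range. RMA by its definition subtracts background, equalises the arrays' distributions and summarises probes. No coordinates are printed, because the build behind the array is not known here. GEO's platform annotation of 2013 names 20806 probe sets by 1 symbol, and the highest-mean probe set stood for a gene.

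Differences, counts and medians were computed with Python 3.11.15, pandas 2.3.3 and statsmodels 0.14.6. With 1 array per genotype there is no test and no p-value, and precision is limited by the number of arrays. The calling rule was run on simulated data with known changes. The simulated noise held no spread between fish, so this run cannot tell how accurate the calls are here. All 10 factors are named. Of other lists, the 4 genes with the largest difference from wildtype could be named, and all opsins. The gene nr1d1 is named only because the clock list shares it. List genes without a matching symbol were not analysed here. The factors and lists were chosen with earlier results of these data known. Alternatives were the level filter, probe set rule, scaling, reference and fold threshold.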

Additional observations from a re-analysis of the deposited data

How the results depend on the processing

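No paired analysis was possible because each genotype has 1 array. The count of factors past 2-fold in the double heterozygote against wildtype was 2, and it was 1 after trend removal, after repeated quantile normalization and with the mean of the other 3 arrays as reference, since six7 then fell below 2-fold. With a 1.5-fold threshold the counts became 2 in eys-/- and 2 in lrp5-/- against wildtype, 3 and 2 in the double heterozygote against eys-/- and lrp5-/-, and 1 in lrp5-/- against eys-/-. Repeated quantile normalization moved the median of the 10 in the double heterozygote to 0.026, and the mean of the other 3 arrays as reference gave -0.051 in lrp5-/-. Against that mean nr2e3 differed by 1.37 in the double heterozygote, 0.15 in lrp5-/- and -0.35 in eys-/-, foxq2 by -0.41, -0.28 and 0.006, and, in lrp5-/- and eys-/-, six7 by -0.16 and -0.30 and rxrga by 0.044 and -0.025. Across the other settings of filter, probe set and scaling, all 348 differences of single factors moved by less than the robust SD of their comparison. Only median centring, trend removal and repeated quantile normalization, with 60 values each, could move them. A level filter only drops factors, and each factor has 1 probe set. The stricter level filter left foxq2 and rxrga out. Without replicates the spread between fish is unknown.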

Other observations

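Genes of thyroid hormone and retinoid signalling, which feed the receptors thrb and rxrga, were mostly level where measured. The list holds thrb itself. Of 27 listed, 23 were matched, and those below the measured level were left out. Over 18 measured in the double heterozygote the median was 0.045. By 2-fold, 1 was higher and 0 lower, beside 1.23% and 0.489% of all measured genes. The higher one was cyp26c1, a retinoic acid hydroxylase, at 1.12. It read 6.73 in the double heterozygote, 5.77 in eys-/- and 6.21 in lrp5-/-, against 5.61 in wildtype, and the lower readings lay below the measured level, so the size is uncertain. The activating deiodinase gene dio2 read 8.26, 7.98 and 7.86, against 7.30 in wildtype, and was higher in every mutant, by 0.96, 0.68 and 0.56. In the same order of mutants, dio1 differed by -0.36, 0.52 and 0.49, and cyp26b1 by -0.58, -0.05 and 0.08. In the double heterozygote 9 of the 18 genes read above wildtype and 9 below. In eys-/- 0 of 16 genes of this list passed 2-fold, and in lrp5-/- 0 of 17, beside 0.632% and 0.671% of all measured genes.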
